A study of Mus musculus with 6 samples.

Results

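Creatine synthesis and transport genes were examined in brain microglia of lupus-prone mice. The set held 6 genes, Gatm, Gamt, Slc6a8, Ckb, Ckm and Ckmt1, taken by symbol from the 55401 genes of the count table. The set was selected on the counts of these same libraries, in which Gatm was already known to differ strongly between the strains, so the member values are given as a description, with no p-value. A total of 19554 genes had enough counts to be tested between the strains, and 5 of the 6 members were among them. Ckm was not.

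Cells make creatine in 2 steps. Gatm (arginine:glycine amidinotransferase) joins arginine and glycine into guanidinoacetate and releases ornithine, and Gamt (guanidinoacetate N-methyltransferase) then adds a methyl group from S-adenosylmethionine. Slc6a8 is the transporter that brings creatine in across the plasma membrane. Creatine kinases move a phosphate between ATP and creatine, so that phosphocreatine acts as an energy buffer. Ckb is the brain-type enzyme of the cytosol, Ckm the muscle-type enzyme of the cytosol, and Ckmt1 the ubiquitous enzyme of mitochondria. In brain, loss of this pathway causes the cerebral creatine deficiency disorders.

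The study compared MRL/lpr mice, which carry the lpr mutation of Fas on the MRL background and develop a lupus-like disease, with MRL/mpj mice, the control strain of the same background without that mutation. Both strains were 6 weeks old and untreated. Brains were perfused and digested with enzymes, the cells were enriched on a Percoll gradient, and CD11b+ cells were kept on magnetic beads, so other CD11b+ myeloid cells of brain were not removed by the selection. RNA depleted of rRNA was sequenced in 3 libraries per strain. The study counts these samples as mice, and the labels do not name the animals, so the spread given here is that between libraries.

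Total counts per library ran from 45481609 to 49846634. The microglia markers Csf1r and Tmem119 were abundant in all 6 libraries. Fas ranged from 282 to 461 counts in MRL/lpr and from 362 to 432 in MRL/mpj, and a count per gene does not separate the mutant from the intact transcript. The study describes female mice, yet 4 Y chromosome genes together had between 8408 and 15046 counts in every library. Xist, the RNA of the inactive X chromosome, ranged from 8886 to 11319 counts in MRL/lpr and from 27 to 38 in MRL/mpj. A difference in the sex of the animals can therefore not be told apart from the difference in strain. MRL/lpr replicate 3 stood apart in that 6.38% of its counts came from the gene CT010467.1, against at most 0.457% in the other 5 libraries. Log2 fold changes without that library are given below for each tested member.

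The 3 kinases descend from one family and share much of their coding sequence, which decides how well reads tell them apart. Ckb and Ckm were identical at 76.5% of 1140 aligned coding bases. Ckmt1 was identical to Ckb at 67.0% and to Ckm at 66.5%. The 60 bases below come from exon 5 of each gene (GENCODE M21 on GRCm38, 5′ to 3′ on the coding strand). They were picked as the aligned coding window, inside an exon of each gene, where Ckb and Ckm had the fewest differences. Capitals mark the bases that differ from Ckb.
Ckb, chr12:111670881-111670940, minus strand: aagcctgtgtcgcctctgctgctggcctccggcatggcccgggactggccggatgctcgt
Ckm, chr7:19416823-19416882, plus strand: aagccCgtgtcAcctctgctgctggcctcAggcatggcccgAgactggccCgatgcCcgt
Ckmt1, chr2:121360921-121360980, plus strand: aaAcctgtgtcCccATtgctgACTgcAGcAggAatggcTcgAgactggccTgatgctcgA

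Ckm differed from Ckb at 6 of these bases and Ckmt1 at 15. Over any 150 bases, the read length of the study, Ckb and Ckm differed at 19 bases or more, and their longest identical run was 20 bases. No stretch of 75 bases of Gatm, Gamt, Slc6a8 or Ckmt1 occurred in a transcript of another annotated gene. Ckb shared 101 of its 1323 stretches of 150 bases with Gm12892, a processed pseudogene, which had between 642 and 789 counts per library and a log2 fold change of 0.10 (SE 0.12). Reads from that shared part cannot be placed with certainty.

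Gatm and Ckb carried nearly all of the signal, and their upstream sequences are shown because the results turn on these 2 genes. The windows hold the 250 bases before the RefSeq start site (GRCm38.p6), 5′ to 3′ on the strand of the gene, and capitals mark the motifs CCAAT (on either strand, where ATTGG is the opposite one) and TATAAA.
Gatm, chr2:122611278-122611527, minus strand: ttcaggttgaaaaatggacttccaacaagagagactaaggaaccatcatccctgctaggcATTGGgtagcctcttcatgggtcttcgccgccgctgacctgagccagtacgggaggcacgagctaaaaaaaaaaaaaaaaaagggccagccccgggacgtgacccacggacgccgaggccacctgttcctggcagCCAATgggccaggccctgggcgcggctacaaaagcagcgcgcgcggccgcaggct
Ckb, chr12:111672339-111672588, minus strand: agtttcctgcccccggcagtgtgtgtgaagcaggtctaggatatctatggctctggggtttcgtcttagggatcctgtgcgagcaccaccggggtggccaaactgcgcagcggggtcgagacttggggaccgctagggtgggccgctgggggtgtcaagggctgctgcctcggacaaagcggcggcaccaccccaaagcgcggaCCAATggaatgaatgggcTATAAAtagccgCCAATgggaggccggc

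The Gatm window was 59.2% G and C and the Ckb window 62.8%. CCAAT lay 55 to 51 bases before the RefSeq start of Gatm and, on the opposite strand, 190 to 186 bases before it. In Ckb it lay 46 to 42 and 16 to 12 bases before the start, on either side of a TATAAA 28 to 23 bases before it. The GENCODE M21 start of Gatm, used for positions elsewhere in the text, is chr2:122611303. The end of the Gatm window therefore lies inside the gene as GENCODE M21 places it. Of 32851 RefSeq windows of the same length, 33.8% held CCAAT and 12.4% held TATAAA on either strand. The letters GGGCGG, present in 32.7% of all windows, were in neither of these 2 on either strand. These matches describe the letters of the windows and no factor was measured there.

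Levels between genes were compared in FPKM, the deposited value per length of gene. In MRL/mpj microglia the order from the highest was Gatm, Ckb, Gamt, Slc6a8, Ckmt1 and Ckm. In MRL/lpr microglia Ckb came first and Gatm second, and the order of the other 4 genes was the same. Neighbours in these orders did not overlap between libraries of a strain, except Ckmt1 and Ckm in MRL/lpr. Gatm and Ckb together made up between 96.8% and 97.2% of the FPKM of the 6 genes in MRL/lpr and between 97.8% and 98.0% in MRL/mpj. The sum over the 6 genes ran from 161 to 177 FPKM in MRL/lpr and from 336 to 344 FPKM in MRL/mpj.

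**Figure D1:**
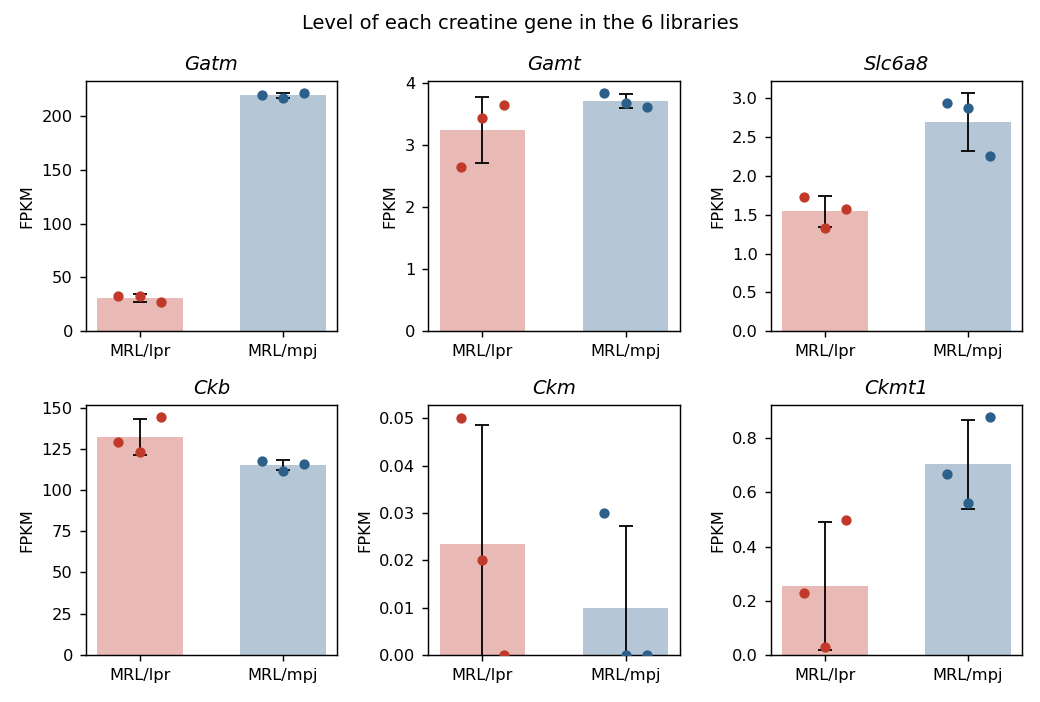
Deposited FPKM (y axis, a separate linear scale from 0 for each gene) of the 6 creatine genes in the MRL/lpr and MRL/mpj libraries, with 1 point per library, bars at the mean and error bars of 1 SD (n = 3). Gatm sat between 27.0 and 33.1 in MRL/lpr and between 217 and 221 in MRL/mpj, Ckb sat a little higher in MRL/lpr, and the Ckm scale ends near 0.05.

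Gatm, which makes the first step of creatine synthesis, was the member with the widest gap between the strains. Gatm (ENSMUSG00000027199, chr2:122594467-122611303, minus strand, GRCm38) had 5361, 5351 and 4112 counts in MRL/lpr replicates 1 to 3. It had 36409, 34975 and 37131 counts in MRL/mpj replicates 1 to 3. All 3 MRL/lpr libraries lay far below all 3 MRL/mpj libraries, with no overlap. Scaled with TMM factors to CPM, the count relative to the size of the library, the level was 109 ± 8.93 (SD, n = 3) in MRL/lpr and 707 ± 7.10 (SD, n = 3) in MRL/mpj. The log2 fold change of MRL/lpr over MRL/mpj was -2.70 (SE 0.08), so that the level was 6.51-fold higher in MRL/mpj. In bulk RNA, fewer cells that express a gene and less RNA per cell cannot be told apart.

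By FPKM, Gatm ranked between 130 and 139 among the 19554 tested genes in MRL/mpj and between 1078 and 1336 in MRL/lpr. It was therefore an abundant transcript of the control libraries and a moderately abundant one of the MRL/lpr libraries. Genes were called at an adjusted p-value under 0.05 with a log2 fold change of at least 1 in size. This rule called 1630 genes (8.34% of those tested), 914 higher (4.67%) and 716 lower (3.66%) in MRL/lpr. By the adjusted p alone, 20.2% of the tested genes passed, 11.1% higher and 9.06% lower, and DESeq2 called 8.04% of the genes it tested. Among the members it called 1, Gatm, and since the members were picked with this contrast known, nothing is read from that count. Gatm was called in each of the 17 other ways of fitting the data, including without MRL/lpr replicate 3.

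Gamt, the methyltransferase of the second step, was a low transcript with no such gap. Gamt (ENSMUSG00000020150, chr10:80258151-80261012, minus strand) had 208, 269 and 269 counts in MRL/lpr and 310, 287 and 294 counts in MRL/mpj. In CPM the MRL/lpr libraries were at 4.42, 5.71 and 6.44 and the MRL/mpj libraries at 6.03, 5.74 and 5.65. The MRL/lpr libraries spread over a wider range that held all 3 MRL/mpj values. Its log2 fold change was -0.07 (SE 0.19), and without MRL/lpr replicate 1 it was 0.07, so the sign rests on that library. Without MRL/lpr replicate 3 the log2 fold change was -0.19.

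The 2 synthesis genes thus differed in how they were set against each other. The ratio of Gatm to Gamt in FPKM was 9.84 ± 2.55 (SD, n = 3) in MRL/lpr and 59.1 ± 1.99 (SD, n = 3) in MRL/mpj. The lowest ratio of a MRL/mpj library, 57.2, lay above the highest of a MRL/lpr library, 12.5. Because Gamt was near level, this ratio carries the Gatm difference and is no separate finding.

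Slc6a8, the creatine transporter, was lower in MRL/lpr by a smaller factor. Slc6a8 (ENSMUSG00000019558, chrX:73673150-73682502, plus strand) had 492, 379 and 418 counts in MRL/lpr and 851, 809 and 663 counts in MRL/mpj. Each MRL/lpr library lay below each MRL/mpj library, with MRL/mpj replicate 3 the nearest to them. The level was 9.51 ± 1.28 CPM (SD, n = 3) against 15.2 ± 2.10 CPM (SD, n = 3). On the log2 scale this was a fold change of -0.67 (SE 0.16), so that the level was 1.59-fold higher in MRL/mpj, which is under the fold limit of the call rule. Without MRL/lpr replicate 3 the log2 fold change was -0.71.

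Slc6a8 lies on the X chromosome, and Xist differed between the strains. Of the 620 other tested X chromosome genes, 11 were higher and 20 lower in MRL/lpr by the call rule (5%), and their median log2 fold change was -0.10. Of all tested genes, the median was -0.01. The part of sex in the Slc6a8 difference was not tested.

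Ckb, the cytosolic brain-type kinase, was the only member that was higher in MRL/lpr in each library. Ckb (ENSMUSG00000001270, chr12:111669361-111672338, minus strand) had 20123, 19250 and 21203 counts in MRL/lpr and 18798, 17356 and 18778 counts in MRL/mpj. The ranges did not overlap, but the lowest MRL/lpr library and the highest MRL/mpj library were close. The level was 448 ± 52.2 CPM (SD, n = 3) against 358 ± 9.65 CPM (SD, n = 3), and MRL/lpr replicate 3 was the highest at 507 CPM. Its log2 fold change was 0.32 (SE 0.08), a 1.25-fold higher level in MRL/lpr. It was 0.23 without MRL/lpr replicate 3 and 0.20 when libraries were scaled by their totals alone, where the median of all tested genes was -0.13.

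Ckb ranked between 239 and 273 by FPKM in MRL/lpr and between 271 and 288 in MRL/mpj, so it was among the abundant transcripts of both. Its ratio to Gatm was 4.32 ± 0.890 (SD, n = 3) in MRL/lpr and 0.525 ± 0.0104 (SD, n = 3) in MRL/mpj. The change of order between the pair did not depend on the length behind FPKM. Counted per kilobase of the longest coding transcript, in CPM, Gatm stood at 309 ± 2.86 and Ckb at 254 ± 6.30 in MRL/mpj. On the same scale Ckb stood at 291 ± 23.4 and Gatm at 43.7 ± 5.04 in MRL/lpr (SD, n = 3).

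Ckm and Ckmt1, the other 2 kinases, were near or at the limit of detection. Ckm (ENSMUSG00000030399, chr7:19404776-19422841, plus strand) had 8, 4 and 0 counts in MRL/lpr and 6, 0 and 0 counts in MRL/mpj. It was at 0 in 3 of the 6 libraries, and no fold is given. Of the list of skeletal muscle genes, Tnnc2 and Myl1 were at 0 in every library, and the list summed to at most 3.72 CPM in any library, with 1 of 5 tested genes, Tnnt3, higher in MRL/lpr. Ckm overlaps an antisense gene, A930016O22Rik, and Ckmt1 overlaps Strc by 10 bases, and both of these had 0 counts in every library.

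Ckmt1 (ENSMUSG00000000308, chr2:121357714-121363737, plus strand) had 32, 4 and 65 counts in MRL/lpr and 94, 77 and 125 counts in MRL/mpj. MRL/lpr replicate 2 was far below the other libraries. In CPM the strains overlapped, since MRL/lpr replicate 3 at 1.56 was above MRL/mpj replicate 2 at 1.54. In counts and in FPKM they did not, but these 2 libraries were close in FPKM as well, at 0.50 and 0.56. The log2 fold change was -1.32 (SE 0.76). It was -0.79 when MRL/lpr replicate 2 was left out and -2.32 when replicate 3 was. At these counts, a difference of this size could not be told from the spread between libraries.

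Low counts were coarser than they look. In MRL/lpr replicate 1, 1234 genes had exactly 4 counts, against 377 genes with 3 and 254 with 5, and the other libraries were alike. If 1 read pair adds 4 counts, as this pile-up allows, the Ckmt1 and Ckm counts rest on few pairs. The counting method was not given in the sources used here.

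**Figure D2:**
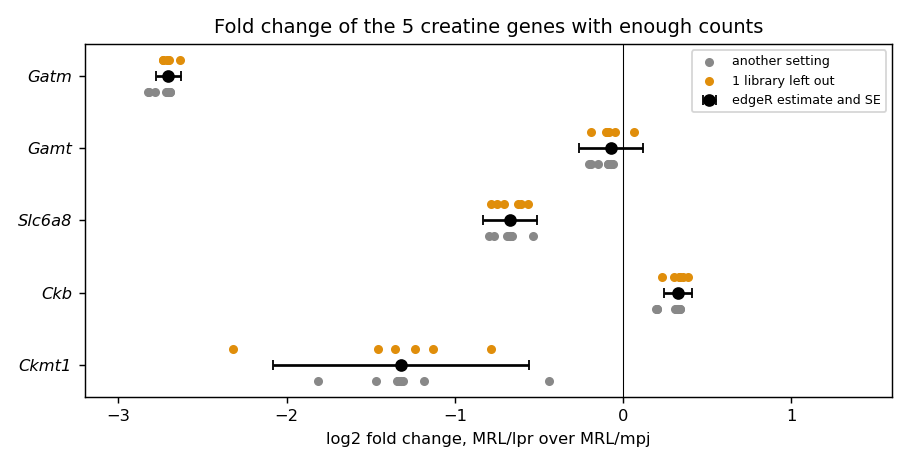
The log2 fold change of MRL/lpr over MRL/mpj (x axis) of the 5 members with enough counts, with edgeR's estimate in black and error bars of 1 SE, fits without 1 library in orange and other settings in grey. Gatm stayed between -2.82 and -2.63, Slc6a8 between -0.80 and -0.54 and Ckb between 0.20 and 0.38, whereas Gamt lay on both sides of 0 and Ckmt1 ran from -2.32 to -0.44.

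The plot of the fold changes places Gatm apart from Gamt, Slc6a8 and Ckb under each setting. Ckmt1 came near to it without MRL/lpr replicate 3, at -2.32 against -2.63 for Gatm. In CPM, 3 of the 6 members (Gatm, Slc6a8 and Ckb) had strains that did not overlap. Of all tested genes, 39.0% did not overlap, 19.6% higher and 19.4% lower. Nothing is read from the member count.

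Genes whose libraries were laid out most like each member were found over 16371 genes with at least 10 counts in every library, by the distance between centred log2 CPM over the 6 libraries (in log2 units, 0 for an equal pattern). Nearest to Gatm were Cwc22 at 0.25, Bcat1 at 0.29, Whrn at 0.31, Chad at 0.34 and Gdpd3 at 0.38. Cwc22, a splicing factor gene also on chromosome 2, was at 26.2 CPM in MRL/lpr and 160 CPM in MRL/mpj. Bcat1, the cytosolic enzyme that transaminates branched-chain amino acids, was at 1.28 and 7.77 CPM. Nearest to Ckb were Slc2a5, the fructose transporter gene expressed by microglia, at 0.07, Mrps27 at 0.08 and Tlr9 at 0.08. Nearest to Gamt was Grcc10 at 0.10, then Coa3 at 0.11 and Boc at 0.13. Nearest to Slc6a8 were Zfp964 at 0.16, Prdm16 at 0.18 and Kctd21 at 0.18. None of the compared genes came near to Ckmt1, for which the smallest distances ran from 1.46 for Schip1 to 1.51 for 2210411M09Rik, with Sec31b between them. Ckmt1 itself had 4 counts in MRL/lpr replicate 2, under the limit of 10. Genes with a like dip were therefore not compared, and nothing is read from these distances.

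The genes of the adjoining pathways gave the setting of the members. The 9 lists covered the substrates of Gatm (arginine and glycine), its product ornithine and the polyamines made from it, the methyl supply of Gamt, and other carriers and kinases. Of 107 listed genes that were matched in the count table, 93 were tested, 2 were higher and 4 lower by the call rule (6.45%, against 8.34% of all tested genes). Their median log2 fold change was -0.06. The share was thus close to that of all genes. Tested against the fold limit itself, Phgdh was the 1 pathway gene that was still called.

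**Figure D3:**
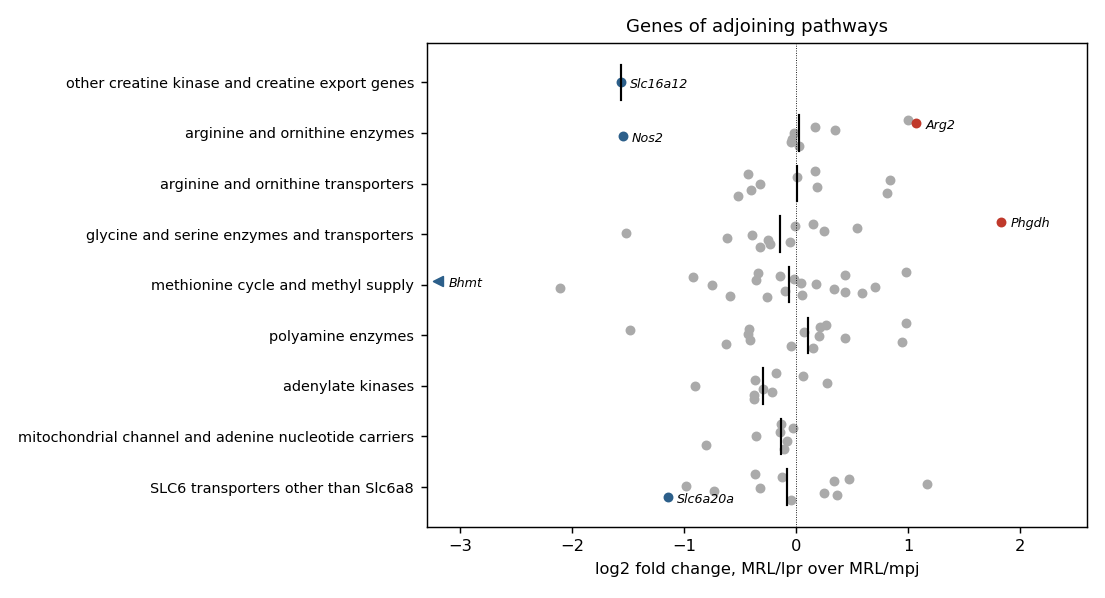
The log2 fold change of MRL/lpr over MRL/mpj (x axis) of each tested gene of the 9 pathway lists (y axis), with a vertical bar at the median of each list and colour for called genes, red where higher and blue where lower in MRL/lpr. The 6 called genes are named and fall in 5 of the 9 lists, and the arrow marks Bhmt, which lies beyond the axis.

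Of the other creatine genes, Slc16a12, a creatine transporter that can let creatine out of cells, was a low transcript with a lower level in MRL/lpr. It had 52, 91 and 33 counts in MRL/lpr and 191, 159 and 233 counts in MRL/mpj. All MRL/lpr libraries were below all MRL/mpj libraries. Slc16a12 thus had a log2 fold change of -1.57 (SE 0.35, adjusted p = 0.0125 in edgeR's test), and the call was lost without MRL/mpj replicate 3. Ckmt2, the mitochondrial kinase of muscle, was at 0 counts in every library.

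Of the 9 tested enzymes that act on arginine and ornithine, 1 was higher and 1 lower. Arg2, the mitochondrial arginase, rose from 1.56 ± 0.13 CPM in MRL/mpj to 3.29 ± 0.451 CPM in MRL/lpr (SD, n = 3; log2 fold change 1.07, SE 0.25, adjusted p = 0.0152), and the call was lost without MRL/lpr replicate 1 or MRL/mpj replicate 2 and when libraries were scaled by their totals alone. Nos2, the inducible nitric oxide synthase, was lower, with 45, 43 and 39 counts in MRL/lpr and 147, 149 and 123 counts in MRL/mpj (log2 fold change -1.55, SE 0.28, adjusted p = 0.00402). Oat, which converts ornithine onward, was named after its value was seen. It was at 71.0 ± 3.40 CPM in MRL/lpr and 73.1 ± 6.49 CPM in MRL/mpj (SD, n = 3). None of the 9 tested arginine and ornithine transporters passed the call rule, and 1 of them passed the adjusted p alone.

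Of the 12 tested genes of glycine and serine, Phgdh, the first enzyme of serine synthesis, was the 1 that passed the call rule. It had 5047, 5002 and 5251 counts in MRL/lpr and 1539, 1538 and 1808 counts in MRL/mpj. The strains lay well apart, at 113 ± 10.9 CPM against 31.8 ± 2.57 CPM (SD, n = 3), with a log2 fold change of 1.83 (SE 0.10, adjusted p = 2.94e-06). The call held in each of the 17 other fits. The list summed to between 291 and 312 CPM in MRL/lpr and between 223 and 237 CPM in MRL/mpj. That sum includes Phgdh, and the higher sum was not shared across the list. Its median log2 fold change was -0.15, and by the adjusted p alone 2 genes were higher and 1 lower.

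The methyl supply of Gamt held 20 tested genes, of which 1 passed the call rule. Bhmt, which remethylates homocysteine from betaine, was at 0 counts in all 3 MRL/lpr libraries and had 35, 23 and 14 counts in MRL/mpj. No fold is given, because the MRL/mpj counts are low and may rest on few read pairs. The call was lost in 6 of the 17 other fits, those with counts divided by 4, a filter of 1 CPM, a replicate block, a test against the fold limit itself, or without MRL/mpj replicate 1 or 2. Mat2a, which makes S-adenosylmethionine outside the liver, was named after its value was seen. It was at 267 ± 22.3 CPM in MRL/lpr and 135 ± 28.1 CPM in MRL/mpj (SD, n = 3), just under the fold limit at a log2 fold change of 0.98 (SE 0.14).

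The 14 polyamine enzymes had no gene past the call rule, while 3 were higher and 3 lower by the adjusted p alone. Odc1, which decarboxylates ornithine and was also named after its value was seen, was at 240 ± 32.9 CPM against 122 ± 8.79 CPM (SD, n = 3; log2 fold change 0.98, SE 0.10). The polyamine list summed to between 1451 and 1815 CPM in MRL/lpr and between 1223 and 1279 CPM in MRL/mpj. No adenylate kinase and no mitochondrial channel or adenine nucleotide carrier passed the call rule, of 9 and 7 tested. Of 12 other tested SLC6 transporters, Slc6a20a, a proline carrier of choroid plexus and meninges, was lower (91, 66 and 97 counts against 249, 202 and 189, log2 fold change -1.15, SE 0.27, adjusted p = 0.0147). Its call was lost without MRL/lpr replicate 2 or MRL/mpj replicate 1.

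Position was examined next, since it was not part of the choice of genes. Of the 18 other tested genes whose start lay within 1 Mb of the Gatm start, 3 were higher and 3 lower by the call rule (33.3%, against 7.54% of the other tested genes of chromosome 2). Within 5 Mb, 14 of 146 were higher and 4 lower (12.3%). Around Slc6a8 and Gamt the shares within 1 Mb were 1.89% of 53 and 2.11% of 95 genes. Around Ckb the share was 4.88% of 41 genes within 1 Mb and 26.3% of 137 within 5 Mb, where 31 were higher and 5 lower. Of the 724 other tested genes of chromosome 12, 54 were higher and 26 lower (11%). Which genes make up the wider Ckb share was not examined, so it is not read as a feature of Ckb. Around Ckm it was 11.5% of 52 and around Ckmt1 9.76% of 41 within 1 Mb, and the Ckmt1 window overlaps that of Gatm. These shares are descriptions and were not tested against each other.

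The called genes beside Gatm moved in both directions. Frmd5 (log2 fold change 1.95, SE 0.34), Eif3j1 (1.03, SE 0.12) and Slc28a2, a nucleoside transporter gene (2.26, SE 0.40), were higher in MRL/lpr. Duoxa1 (-1.49, SE 0.21), Bloc1s6 (-1.25, SE 0.18) and Sqor, the mitochondrial enzyme that oxidises sulfide (-1.02, SE 0.09), were lower. Sqor had 2635, 2863 and 2098 counts in MRL/lpr and 5733, 5837 and 5739 counts in MRL/mpj, so the strains lay well apart. The call of Eif3j1 was lost without MRL/lpr replicate 2 or MRL/mpj replicate 3 and with scaling by totals alone, and that of Sqor without MRL/lpr replicate 3 or MRL/mpj replicate 2. Spata5l1, whose start is nearest to that of Gatm, had a log2 fold change of -0.56 (SE 0.15). B2m, the light chain of MHC class I, was at 1369 ± 58.3 CPM in MRL/lpr and 806 ± 28.2 CPM in MRL/mpj (SD, n = 3; log2 fold change 0.76, SE 0.06). Of the called genes within 5 Mb, those with the smallest adjusted p were Kcnip3 (4.80), Spint1 (7.66), Bub1b (2.16), Sqor and Nusap1 (1.73), with log2 fold changes given for the 4 not yet described.

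**Figure D4:**
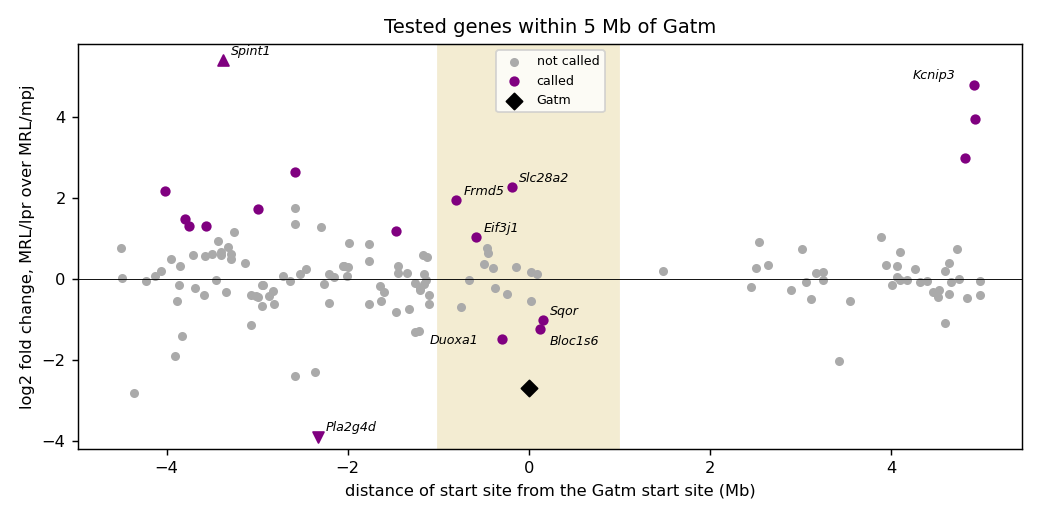
The log2 fold change of MRL/lpr over MRL/mpj (y axis) of each tested gene against the distance of its start from the Gatm start in Mb (x axis), with called genes in purple, Gatm as a black diamond and the 1 Mb window shaded. Of the 18 neighbours in the shaded window 3 are called above 0 and 3 below, and the triangles mark Spint1 and Pla2g4d, which lie beyond the axis.

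Markers of other cell types moved with the strains and are given beside the members, since creatine genes are also used by these cells. Microglia markers summed to between 29141 and 32904 CPM in MRL/lpr and between 34408 and 35203 CPM in MRL/mpj, and 1 of 16, Fcrls, was lower by the call rule. Cx3cr1 was uneven within MRL/lpr, at 2819 CPM in replicate 2 and at 226 and 247 CPM in replicates 1 and 3. In MRL/mpj it lay between 558 and 564 CPM. Olfml3 was at 503 CPM in MRL/mpj replicate 1 and at 1377 and 1333 CPM in replicates 2 and 3. The microglia sums include both genes. No marker of any list other than Tnnc2 and Myl1 of muscle was at 0 in every library. Choroid plexus and ependyma markers summed to between 380 and 396 CPM against between 1099 and 1184 CPM, with 7 of 12 lower, led by Ttr at 302 ± 6.68 CPM against 942 ± 40.3 CPM (SD, n = 3). Neuron markers summed to between 37.2 and 42.8 CPM against between 70.8 and 79.2 CPM, with 4 of 12 lower, Camk2a and Snap25 among them.

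Astrocyte markers summed to between 131 and 178 CPM against between 211 and 220 CPM, with 0 of 12 past the call rule. Slc1a3, the most abundant of them, was at 66.1 ± 22.8 CPM against 130 ± 3.05 CPM (SD, n = 3). The astrocyte sum includes Slc1a3, and the median log2 fold change of that list was -0.09. Oligodendrocyte markers summed to between 132 and 154 CPM against between 170 and 202 CPM, with 2 of 12 lower, Mobp among them. Mbp, the most abundant of the list in MRL/mpj, was at 46.6 and 49.0 CPM. Border macrophage markers summed to between 467 and 509 CPM against between 787 and 812 CPM, with 1 of 10 lower.

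In the other direction, T and NK cell markers summed to between 19.6 and 24.2 CPM in MRL/lpr against between 5.34 and 6.75 CPM, with 7 of 10 higher. B and plasma cell markers summed to between 29.5 and 31.8 CPM against between 14.0 and 15.2 CPM, with 2 of 7 higher. Endothelial markers summed to between 3336 and 3783 CPM against between 3021 and 3109 CPM, with none of 12 past the call rule. Neutrophil markers summed to between 719 and 840 CPM against between 572 and 636 CPM, with none of 8 past the rule. Monocyte markers overlapped between the strains, with 2 of 8 higher and 1 lower. Erythrocyte markers summed to between 686 and 1136 CPM against between 613 and 675 CPM, with 1 of 6 higher, and MRL/lpr replicate 3 was the highest. The part of these cells in the values of Gatm, Slc6a8, Ckb and Ckmt1 was not tested.

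**Figure D5:**
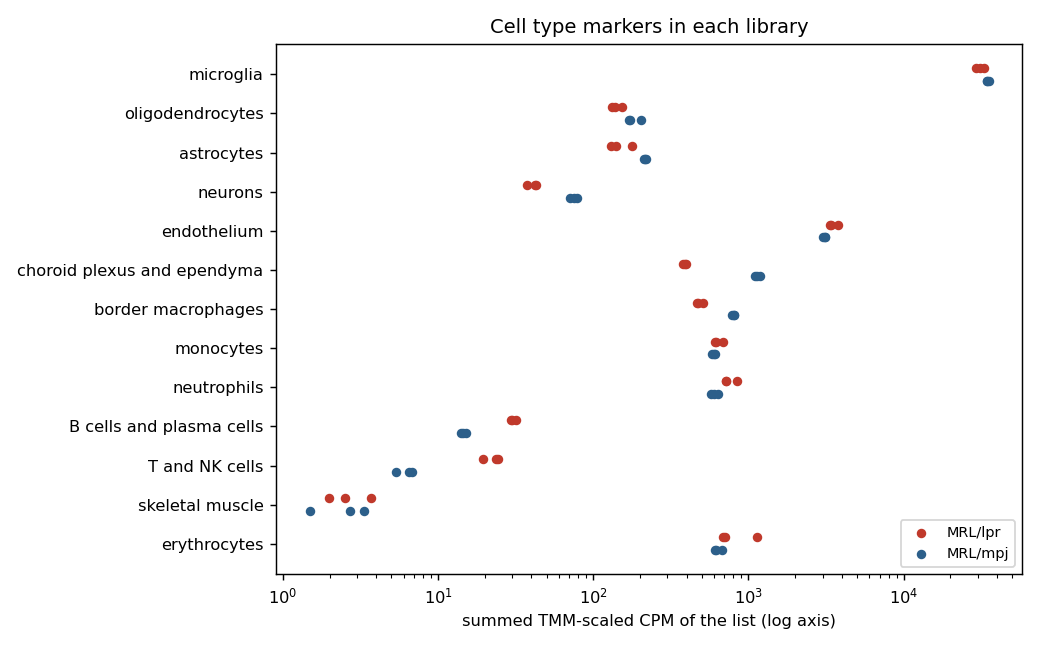
Summed TMM-scaled CPM of each list of cell type markers (x axis, log scale) in the 3 MRL/lpr and 3 MRL/mpj libraries, with 1 point per library. Choroid plexus and ependyma markers lie at 380 to 396 CPM in MRL/lpr and 1099 to 1184 CPM in MRL/mpj, and T and NK cell markers lie at 19.6 to 24.2 CPM against 5.34 to 6.75 CPM.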

How the data were processed

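Libraries of CD11b+ cells from brain were made with a stranded total RNA kit, 3 for MRL/lpr and 3 for MRL/mpj, and grouped by the genotype in the labels. The authors deposited raw counts per gene and FPKM per library. The study's methods name Cutadapt, HISAT2 and DESeq2, and the submitters' processing notes list cutadapt 1.9.3, HISAT2 2.0.4, Cuffdiff 2.2.1, Cufflinks and GRCm38. The counting tool, its strand setting and the annotation were not given in the sources used here.

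Counts were tested with edgeR 4.0.16 in R 4.3.3 (TMM factors, filterByExpr with a minimum count of 10, robust quasi-likelihood test, Benjamini-Hochberg adjustment over all 19554 tested genes). Genes were called at an adjusted p under 0.05 with a log2 fold change of 1 or more in size. DESeq2 1.42.0 was an alternative. The fit was tested on simulated data. Symbols and positions came from GENCODE M21 (GRCm38), which matched 55141 of 55401 identifiers, and 2 listed genes, Gcat and Ahsp, had no single match. The length behind FPKM followed the union of exons.

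The text names the 6 members, the called pathway genes with the largest changes, the most abundant markers, the genes nearest in pattern, and the genes beside Gatm. The members and lists were chosen with earlier results of these data known. p-values measure the spread between these libraries only.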

Additional observations from a re-analysis of the deposited data

How the results depend on the processing

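The calls were recomputed with other scalings, filters, dispersions and tests and without each library, and Gatm was called each time. Testing against the fold limit itself (glmTreat) left 379 higher and 237 lower genes, 1 higher and 0 lower pathway genes, 5 higher and 1 lower gene within 5 Mb of Gatm and 0 and 0 within 1 Mb. With library size only, 766 genes were higher and 932 lower, against 914 and 716 with TMM, 1 pathway gene was higher, and the log2 fold changes of Gatm and Ckb were -2.82 and 0.20. From mean FPKM, that of Gatm was -2.82 with a pseudocount of 0.1, and that of Ckb was 0.20 with a pseudocount of 0.1 or 1. Without 1 library each, the ranges were 796 to 858 higher and 571 to 792 lower genes, 1 to 3 higher (1 without MRL/lpr replicate 1) and 2 to 4 lower pathway genes (2 without MRL/mpj replicate 1), and 12 to 15 higher and 3 to 7 lower genes within 5 Mb of Gatm (7 without MRL/lpr replicate 1), 2 to 3 in each direction within 1 Mb. Log2 fold changes then ran from -2.74 to -2.63 for Gatm, -0.19 to 0.07 for Gamt, -0.79 to -0.57 for Slc6a8, 0.23 to 0.38 for Ckb and -2.32 to -0.79 for Ckmt1. Samples of the same number shared only that number (correlations of -0.04, -0.02 and -0.03 between their deviations). With a replicate block, 806 genes were higher and 616 lower, and Gatm was at -2.70. The cause of these shifts was not tested. With few counts, depth limits what can be said of Ckm and Ckmt1.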
